A study of Homo sapiens with 6 samples.

Results

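The genes examined here make, break down and sense prostaglandins, lipid signals derived from arachidonic acid. They are the 10 genes PLA2G4A, PTGS1, PTGS2, PTGES, PTGES2, PTGES3, HPGD, PTGR1, PTGER2 and PTGER4, found by their gene symbols among 81496 symbols on the array. Each symbol was carried by 1 probe set. They were measured in MCF10.AT1, a human breast epithelial line from the MCF10A progression model that is preneoplastic and sensitive to fluvastatin, and in MCF10.AT1-R, the fluvastatin resistant line selected from it by exposure to rising doses (1, 5 and up to 20 µM). Fluvastatin is a statin, an inhibitor of HMG-CoA reductase in cholesterol biosynthesis. The comparison asked which transcripts differ once resistance has been acquired. Both lines were grown in MCF10.AT1 medium. The MCF10.AT1 cells were untreated, and whether fluvastatin was present when the MCF10.AT1-R cells were collected is not given in the sources used here. MCF10.AT1-R was a single derived line, so the values compare 1 resistant line with its parent.

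Prostaglandin synthesis starts when a phospholipase frees arachidonic acid from membranes. The cyclooxygenases then convert it to prostaglandin H2, from which the prostaglandin E synthases form prostaglandin E2. Prostaglandin E2 signals through receptors on the cell surface, several of which raise or lower cyclic AMP, and it is inactivated by 15-hydroxyprostaglandin dehydrogenase. In epithelial tumors, breast tumors included, this pathway is known for induction of the cyclooxygenase PTGS2 and loss of the dehydrogenase HPGD.

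Clariom D arrays read transcripts with short oligonucleotide probes, and each value below is a log2 value made by the RMA method. Arrays whose names start with A (A01, A02, A03) hold MCF10.AT1 and those that start with B (B02, B03, B04) hold MCF10.AT1-R. A03 was removed by the study as an outlier and is given apart. Its correlation with the other arrays lay between 0.780 and 0.795, where those 5 arrays correlated among themselves at 0.967 to 0.977. On A03, 8 of the 10 genes were lower than on both A01 and A02, with a median difference of -1.08 from their mean. Values were read against the 95th percentile of 612 negative control probe sets, which lay between 2.88 and 3.15 on the 6 arrays. All 8 breast epithelial markers (KRT5, KRT14, KRT17, KRT18, KRT8, EPCAM, CDH1 and TP63) were above it on all 5 arrays.

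PTGS2, the inducible cyclooxygenase, was upregulated in MCF10.AT1-R cells, and HPGD, the enzyme that inactivates prostaglandin E2, was downregulated. PTGS2 was 4.20-fold higher (95% interval 2.75 to 6.42) and HPGD was 2.62-fold lower. The other 8 genes comprise the constitutive cyclooxygenase, the lipase, all 3 prostaglandin E synthases, the reductase PTGR1 and both receptors. None was called at FDR 5%, and each of their differences was within 0.5 on the log2 scale. A filter for low and invariant genes removed the 3 synthases, which were read from a fit without it. The arrays of the lines overlapped for all 8. Of the 10 genes, 7 entered the test, and 1 was higher and 1 was lower at FDR 5%. Of all 51457 probe sets tested, 1.2% were called (0.758% higher and 0.447% lower). The median difference of the 10 genes, MCF10.AT1-R minus MCF10.AT1, was 0.143, with 7 positive and 3 negative, and that of all transcript probe sets was 0.00975. In these bulk samples, fewer cells that express a gene and less of its RNA per cell cannot be told apart.

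**Figure D1:**
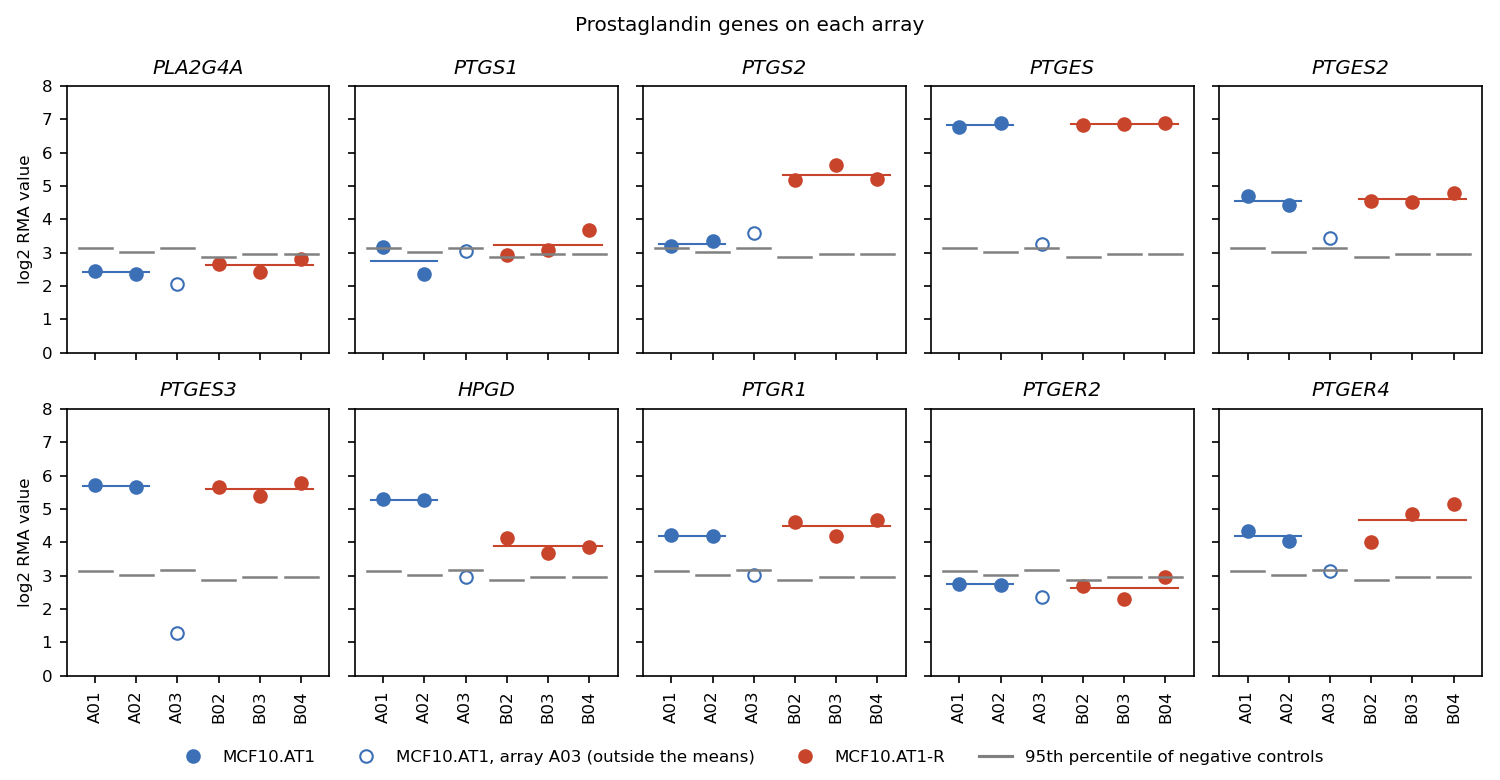
Log2 RMA values (y axis) of the 10 prostaglandin genes on each of the 6 arrays (x axis), in MCF10.AT1 (blue), MCF10.AT1-R (red) and the removed MCF10.AT1 array A03 (open). Lines mark the group means over 2 and 3 arrays, and grey bars the 95th percentile of the negative controls on that array. The MCF10.AT1-R arrays lie above A01 and A02 for PTGS2 (5.19 to 5.62 against 3.20 and 3.34) and below them for HPGD (3.68 to 4.13 against 5.26 and 5.29).

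PLA2G4A encodes cytosolic phospholipase A2, which frees arachidonic acid. Its log2 values were 2.46 and 2.36 in MCF10.AT1 (A01, A02) and 2.66, 2.42 and 2.82 in MCF10.AT1-R (B02, B03, B04). All 5 values were under the negative control limit of their array, so the probe set was not above background in either line. The fitted difference was 0.22 (95% interval -0.39 to 0.83, adjusted p = 0.864 with limma).

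PTGS1, the constitutive cyclooxygenase, had log2 values of 3.17 and 2.35 in MCF10.AT1 and 2.94, 3.09 and 3.69 in MCF10.AT1-R. The means were 2.76 ± 0.58 (SD, n = 2) and 3.24 ± 0.39 (SD, n = 3). A01 was higher than both B02 and B03, so the lines overlapped, and A02 was within the negative controls. The difference was 0.48 (95% interval -0.13 to 1.09) and did not pass the limma test with an adjusted p of 0.760. The interval allows a difference of up to 1.09 on the log2 scale. The value rested on the MCF10.AT1 arrays, since it was 0.889 without A01 and 0.0673 without A02, and it was 0.175 with low values raised to the 95th percentile of the negative controls.

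PTGS2 had log2 values of 3.20 and 3.34 in MCF10.AT1 and of 5.19, 5.62 and 5.22 in MCF10.AT1-R. The means were 3.27 ± 0.098 (SD, n = 2) and 5.35 ± 0.24 (SD, n = 3). Every MCF10.AT1-R array was higher than every MCF10.AT1 array, with a gap of 1.85 between the lowest of one line and the highest of the other. In MCF10.AT1 the values stood just above the negative control limits of 3.14 and 3.03, so the parental level was close to background, where array values are compressed. The log2 difference was 2.07 (SE 0.31, 95% interval 1.46 to 2.68), with an adjusted p of 1.86e-08 by limma over all tested probe sets. The size of this p depended on the filter: it was 0.0112 without a filter and 0.0139 with the low-expression filter alone. The difference was rank 65 among the rises of 36081 symbols. On A03 the value was 3.58, below all 3 MCF10.AT1-R arrays and closer to A01 and A02. With A03 added to its group the difference was 1.97 and the adjusted p was 0.180.

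The prostaglandin E synthases act on the product of the cyclooxygenases. PTGES, the inducible microsomal synthase, had log2 values of 6.78 and 6.88 in MCF10.AT1 and of 6.83, 6.86 and 6.88 in MCF10.AT1-R. All 5 arrays lay within a span of about the same size as the gap between the MCF10.AT1 replicates. PTGES2, a membrane-associated synthase, had values of 4.69 and 4.43 in MCF10.AT1 and of 4.57, 4.52 and 4.78 in MCF10.AT1-R. PTGES3, the cytosolic synthase that is also the HSP90 co-chaperone p23, had values of 5.71 and 5.65 in MCF10.AT1 and of 5.64, 5.38 and 5.78 in MCF10.AT1-R. The arrays of the lines overlapped for each of the 3 synthases, and all 3 were above the negative controls on all 5 arrays. Their low SD put them outside the filter, and in the limma fit without a filter their differences were 0.024 (95% interval -0.39 to 0.44) for PTGES, 0.063 (-0.39 to 0.51) for PTGES2 and -0.081 (-0.54 to 0.38) for PTGES3. Their adjusted p-values were 0.989, 0.974 and 0.966. PTGES3 was at 1.29 on A03, under every other array and under the negative controls.

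HPGD encodes 15-hydroxyprostaglandin dehydrogenase, which starts the breakdown of prostaglandin E2. Its log2 values were 5.29 and 5.26 in MCF10.AT1 and 4.13, 3.68 and 3.85 in MCF10.AT1-R. The means were 5.28 ± 0.019 (SD, n = 2) and 3.89 ± 0.23 (SD, n = 3). Every MCF10.AT1-R array was lower than A01 and A02, with a gap of 1.13, and all 5 values were above the negative controls, so the transcript was still detected in the resistant line. The log2 difference was -1.39 (SE 0.31, 95% interval -2.00 to -0.78), rank 75 among the falls of 36081 symbols, with an adjusted p of 0.00154 by limma. This call depended on the filter and on the number of arrays: the adjusted p was 0.0711 without a filter and 0.0612 with the low-expression filter alone, and it was 0.0976 without A01 and 0.0972 without A02. On A03 HPGD was at 2.97, below A01 and A02 and also below all 3 MCF10.AT1-R arrays, and with A03 added the difference was -0.62 (adjusted p = 0.777 with limma).

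Arrays of the lines that do not overlap were common among all probe sets. PTGS2 and HPGD were 2 such genes among the 10, against 26.7% of the probe sets tested (12.9% with MCF10.AT1-R higher and 13.8% with it lower) and 23.3% of all transcript probe sets.

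**Figure D2:**
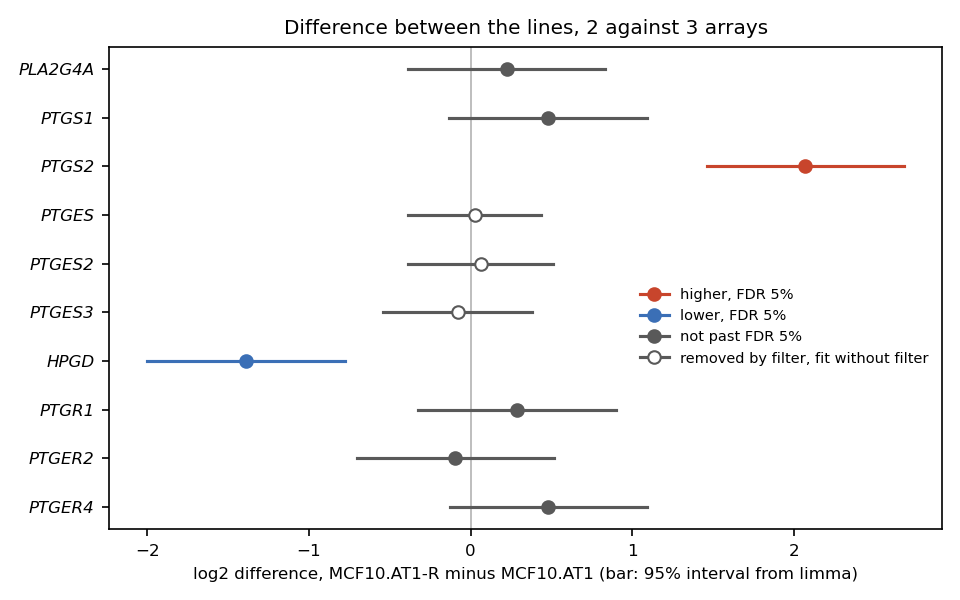
Log2 difference, MCF10.AT1-R minus MCF10.AT1 (x axis), of the 10 prostaglandin genes (y axis) over 2 and 3 arrays, with the 95% interval from limma as bars. Red is higher and blue is lower at FDR 5%, and open points are genes removed by the filter and fitted without it. The interval lies above 0 for PTGS2 (1.46 to 2.68), below 0 for HPGD (-2.00 to -0.78) and across 0 for the other 8 genes.

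The promoters of PTGS2 and HPGD are shown since these were the genes that passed the test, in opposite directions. Each line gives the 250 bases before the start of the RefSeq gene (GRCh38.p14, 5′ to 3′, minus strand), and capitals mark matches to the motifs listed after them. The PTGS2 stretch lies at chr1:186680424-186680673 and the HPGD stretch at chr4:174522489-174522738, upstream of the more downstream of 2 listed starts.
PTGS2: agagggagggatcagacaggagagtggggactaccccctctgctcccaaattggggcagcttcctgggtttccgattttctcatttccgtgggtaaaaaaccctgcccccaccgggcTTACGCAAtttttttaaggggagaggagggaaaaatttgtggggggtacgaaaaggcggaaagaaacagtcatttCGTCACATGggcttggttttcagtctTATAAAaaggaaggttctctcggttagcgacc
HPGD: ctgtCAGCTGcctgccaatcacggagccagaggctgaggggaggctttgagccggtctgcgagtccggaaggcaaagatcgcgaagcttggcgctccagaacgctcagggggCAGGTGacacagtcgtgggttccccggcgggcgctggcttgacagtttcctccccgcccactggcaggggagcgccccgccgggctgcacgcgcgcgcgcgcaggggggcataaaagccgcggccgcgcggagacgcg
The motifs were searched on both strands in 35114 promoters of the same length. The PTGS2 promoter held a TATA box (TATAAA, in 10.7% of promoters) from 32 to 27 bases before the start. It held the short form of a cyclic AMP response element (TGACG, in 21.2%) from 58 to 54 bases before the start on the opposite strand, which overlaps an E-box (CANNTG, in 61.8%) from 55 to 50. A C/EBP-type motif (TTNNGCAA, in 9.05%) lay from 133 to 126 bases before the start. The HPGD promoter held E-boxes from 246 to 241 and from 138 to 133 bases before the start, and no match to the other patterns. The TATA box was searched as TATAAA alone, so TATA-like letters such as cataaaa in the HPGD stretch were not counted. Neither window held an AP-1 motif (TGANTCA, in 6.57%) or a sterol response element (TCACNCCAC, in 0.883%). The latter is the motif read by the SREBP factors of cholesterol biosynthesis. Neither window matched the NF-kB-type pattern that was searched (in 1.73%). That pattern is narrow, so NF-kB sites with other letters were not searched for and may be present. Matches of letters are a description, and no binding was measured.

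PTGR1, prostaglandin reductase 1, reduces the keto product that HPGD makes and also inactivates leukotriene B4. Its log2 values were 4.20 and 4.20 in MCF10.AT1 and 4.61, 4.19 and 4.66 in MCF10.AT1-R. B03 was level with the MCF10.AT1 arrays, and B02 and B04 were higher. The difference was 0.29 (95% interval -0.32 to 0.90, adjusted p = 0.839 with limma).

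PTGER2 and PTGER4 encode the prostaglandin E2 receptors EP2 and EP4, which raise cyclic AMP. PTGER2 had log2 values of 2.74 and 2.73 in MCF10.AT1 and of 2.67, 2.30 and 2.95 in MCF10.AT1-R, and all 5 were under the negative control limit. Its difference was -0.094 (95% interval -0.71 to 0.52), and the adjusted p with limma was 0.946. PTGER4 had values of 4.34 and 4.04 in MCF10.AT1 and of 4.01, 4.85 and 5.15 in MCF10.AT1-R, all above the negative controls. B03 and B04 were higher than both MCF10.AT1 arrays and B02 was lower than both, so the lines overlapped. The difference was 0.48 (95% interval -0.13 to 1.09, adjusted p = 0.757 with limma). The spread within the lines (residual SD 0.496) was the widest among the 10 genes, and the difference was 0.81 without B02 and 0.24 without B04.

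Unequal change of a pair of genes was read from the difference of their log2 values within each array. The offset of such a difference depends on the probes, so only its shift between the lines was compared. Each shift is the difference between the changes of its 2 genes given above, so it is no separate support for them. PTGS2 minus HPGD was -2.09 and -1.92 in MCF10.AT1 and 1.06, 1.94 and 1.37 in MCF10.AT1-R, a shift of 3.46, while A03 stood between the lines at 0.61. PTGS2 minus PTGS1 shifted from 0.51 ± 0.68 (SD, n = 2) to 2.10 ± 0.51 (SD, n = 3), a shift of 1.59. PTGS2 minus PTGES shifted by 2.05, from -3.56 to -1.51. In these 3 pairs every MCF10.AT1-R array was above both MCF10.AT1 arrays, and the exact two-sided permutation p was 0.2, the smallest that 2 against 3 arrays allow. After adjustment over the 5 pairs compared it was 0.333. This permutation test could not pass a threshold of 0.05 with these arrays, so the shifts are given as values. PTGER4 minus PTGER2 shifted by 0.58 with overlapping arrays (exact permutation p = 0.4). PTGER2 was under the negative controls on all 5 arrays, and with low values raised to their 95th percentile the shift was 0.48, the difference of PTGER4 alone. PTGS1 was under them on A02, and with the same floor PTGS2 minus PTGS1 shifted by 1.90. PTGES minus PTGES2 shifted by -0.038 (exact permutation p = 1).

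**Figure D3:**
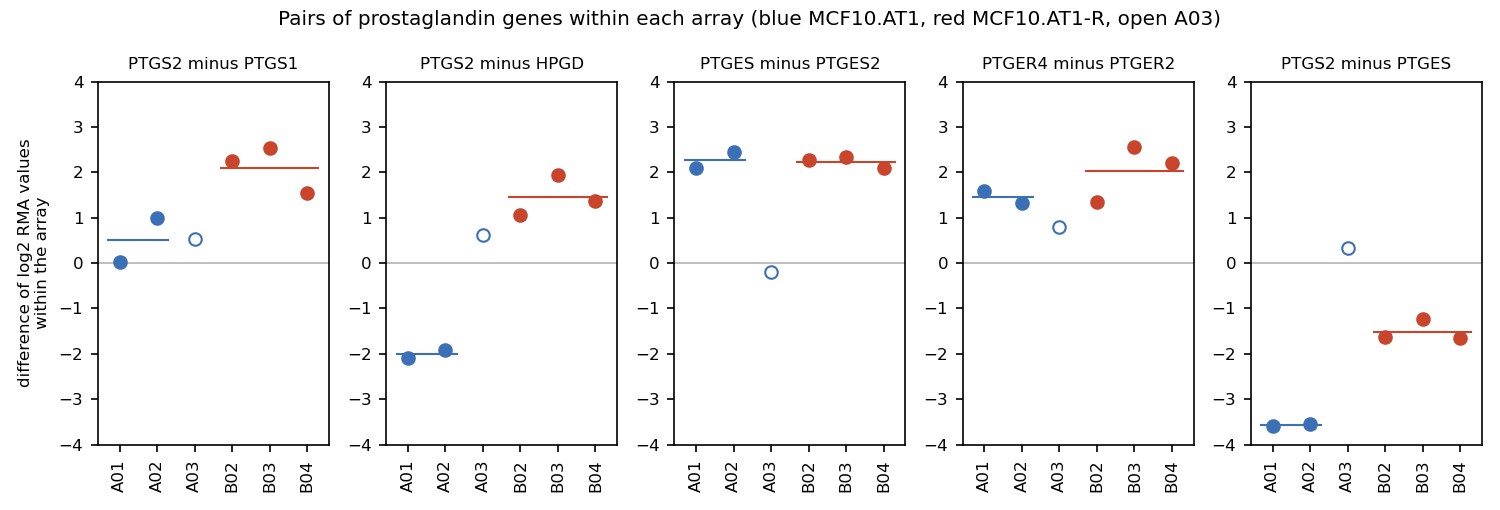
Difference of log2 RMA values between 2 prostaglandin genes on the same array (y axis) for 5 pairs, by array (x axis), in MCF10.AT1 (blue), MCF10.AT1-R (red) and the removed array A03 (open), with lines at the group means. PTGS2 minus HPGD is -2.09 and -1.92 in MCF10.AT1 and 1.06 to 1.94 in MCF10.AT1-R, and PTGES minus PTGES2 stays between 2.10 and 2.45 on the same 5 arrays.

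Other genes of eicosanoid metabolism were taken from a list of 52 genes, of which 50 had a probe set and 33 passed the filter. AKR1C3 was downregulated in MCF10.AT1-R, and no gene of the list was higher at FDR 5%. At an unadjusted p under 0.05, 7 of the 33 genes tested differed by limma, against 4249 of all 51457 probe sets tested. The median difference over the 50 genes was 0.0255, with 27 positive and 23 negative. Of the 50, 23 were not above the negative controls on all 5 arrays. There was no overlap between the lines for 10 genes that were higher in MCF10.AT1-R and 8 that were lower, to be read against the 23.3% of all transcript probe sets.

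AKR1C3 is an aldo-keto reductase that forms prostaglandin F and also reduces steroids. Its log2 values were 9.55 and 9.53 in MCF10.AT1 and 7.14, 6.73 and 7.06 in MCF10.AT1-R. All 3 resistant arrays were lower than both parental arrays, by at least 2.39. The difference was -2.56 (95% interval -3.17 to -1.95), a 5.91-fold lower value, with an adjusted p of 2.27e-13 by limma. In the limma fit without a filter the adjusted p was 0.00339. AKR1C3 has near-identical neighbors in its family, and whether its probes also read their transcripts was not tested.

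Of the 9 other prostanoid synthases on the list, 8 had a negative difference, and the median over the 9 was -0.61. In 4 of the 9, every MCF10.AT1-R array was below both MCF10.AT1 arrays. This order was also found in 13.8% of the probe sets tested. Of the 9, 3 were not above the negative controls on all 5 arrays. Besides AKR1C3, CBR1, a carbonyl reductase that converts prostaglandin E2, was at 6.72 and 6.61 in MCF10.AT1 and at 6.02, 5.89 and 6.10 in MCF10.AT1-R. It did not pass the limma test (difference -0.66, adjusted p = 0.523). AKR1B1, an aldose reductase with prostaglandin F synthase activity that was chosen after its values were seen, had a difference of -0.61 and an adjusted p of 0.610, and with the trend option of limma, which lets the expected spread follow the level, the adjusted p was 5.53e-08. TBXAS1, thromboxane synthase, had a difference of -0.90 (adjusted p = 0.178 with limma). Its A02 value stood apart at 3.64, against 1.72 on A01 and 1.68 to 1.86 in MCF10.AT1-R. Only A02 was above the negative controls, so this difference rested on that array. PTGDS, the lipocalin-type prostaglandin D synthase, had a difference of 0.057 (adjusted p = 0.969), and HPGDS, the hematopoietic one, was under the negative controls on all 5 arrays.

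The 14 upstream lipases and their inhibitor on the list had a median difference of 0.20, with 12 positive and 2 negative. None of the 9 that entered the test passed it. Of these 14, 6 were not above the negative controls on all 5 arrays. MGLL, monoacylglycerol lipase, which can supply arachidonic acid from 2-arachidonoylglycerol, had log2 values of 7.14 and 7.23 in MCF10.AT1 and of 7.80, 7.81 and 7.99 in MCF10.AT1-R. These did not overlap, and the difference of 0.68 had an adjusted p of 0.494 in the limma fit with 1 common SD and 7.68e-04 with the trend option. The 3 genes that return arachidonic acid to phospholipids all had negative differences, with a median of -0.39. ACSL4, which activates arachidonic acid, was at 4.40 and 2.88 in MCF10.AT1 and at 3.08, 2.31 and 3.45 in MCF10.AT1-R. A02 and B03 were under their negative control limits, and the lines overlapped (difference -0.70, adjusted p = 0.469 with limma).

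Transport, breakdown and the other receptors showed no call at FDR 5% in the fit with 1 common SD. The transporter SLCO2A1, which takes prostaglandins into cells, had a difference of -0.20 (adjusted p = 0.878 with limma). The 4 transport and breakdown genes had a median of -0.17. The 8 other prostanoid receptor genes, which include that of a receptor partner protein, had a median of 0.0845. Of these 8, 4 were not above the negative controls on all 5 arrays. PTGER3, the prostaglandin E2 receptor EP3, was under the negative controls on all 5. The partner protein gene PTGFRN, chosen after its values were seen, was at 7.32 and 7.30 in MCF10.AT1 and at 7.97, 7.89 and 7.88 in MCF10.AT1-R. These did not overlap, and the difference of 0.60 had an adjusted p of 0.618 by limma and 0.00398 with the trend option. The 12 lipoxygenase branch genes, which lead to leukotrienes and related lipids, had a median of 0.0711 with 7 positive and 5 negative. Of these 12, 9 were not above the negative controls on all 5 arrays.

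The cyclic AMP genes downstream of EP2 and EP4 were taken from a list of 31 genes, of which 21 passed the filter. None passed FDR 5% by limma, 3 of the 21 differed at an unadjusted p under 0.05 (4249 of all 51457 probe sets tested did), and 1 (ATF1) passed with the trend option. The median difference over the 31 genes was 0.0298, with 19 positive and 12 negative. Of the 31, 10 were not above the negative controls on all 5 arrays. The lines did not overlap for 6 higher and 3 lower genes, against 23.3% of all transcript probe sets. RGS2, a regulator of G protein signaling that responds to cyclic AMP, was at 2.75 and 3.38 in MCF10.AT1 and at 4.26, 3.99 and 3.75 in MCF10.AT1-R. The RGS2 difference of 0.93 had an adjusted p of 0.140 with limma, and its A01 value was under the negative control limit. PRKACB, a catalytic subunit of protein kinase A, had a difference of 0.78 (adjusted p = 0.333 with limma). ATF1, a transcription factor of the CREB family, had a difference of -0.71 (adjusted p = 0.442), and 9.17e-04 with the trend option. PDE4D, a phosphodiesterase that degrades cyclic AMP, had a difference of -0.58 (adjusted p = 0.650).

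**Figure D4:**
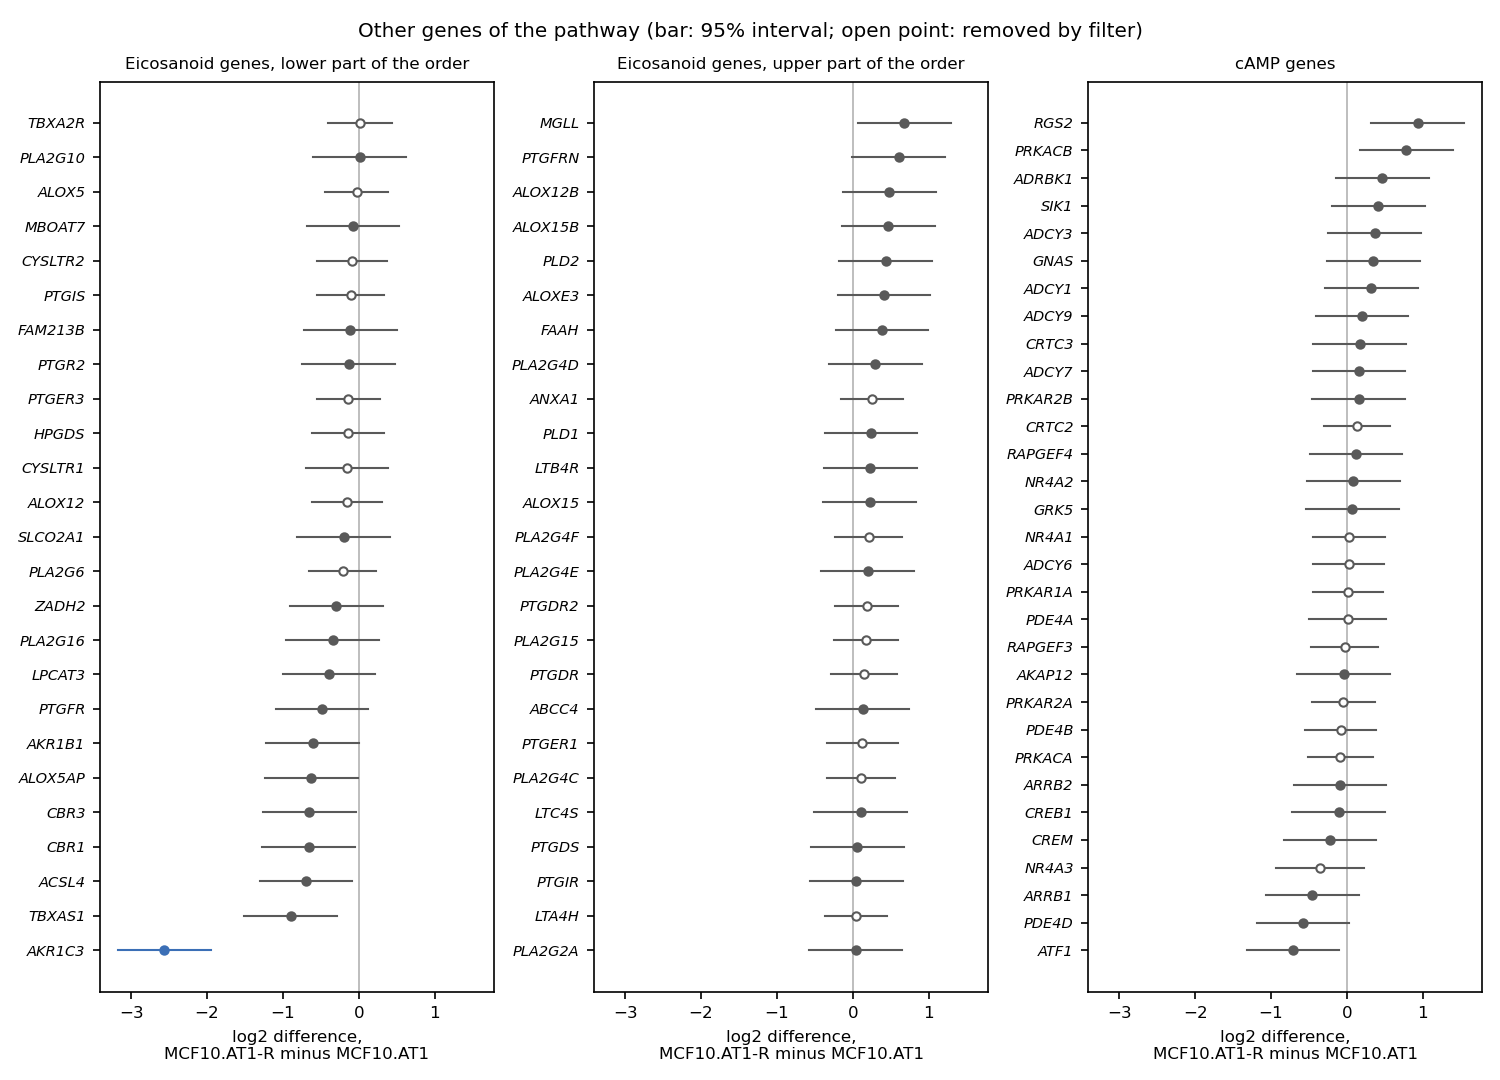
Log2 difference, MCF10.AT1-R minus MCF10.AT1 (x axis), of the 50 measured eicosanoid genes, drawn as the lower and the upper part of their order, and of the 31 cyclic AMP genes (y axis), with the 95% interval from limma as bars and open points for genes removed by the filter. AKR1C3, in blue, is at -2.56 and is lower at FDR 5%, and the remaining eicosanoid genes lie between -0.90 and 0.68.

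Markers of cell types moved with the lines as well. Of the 8 breast epithelial markers, 6 were higher in MCF10.AT1-R at FDR 5%, and their summed log2 values were 57.4 to 58.0 in MCF10.AT1 and 71.2 to 72.3 in MCF10.AT1-R. KRT18 (0.85, adjusted p = 0.243 with limma) and EPCAM (0.78, adjusted p = 0.341) did not pass. Lists of markers of cells known to express cyclooxygenases or HPGD were also read. Of 6 fibroblast markers (summed values 27.0 to 27.7 against 24.8 to 25.6), only DCN passed and was lower (-2.15, adjusted p = 3.88e-09), COL1A1, COL1A2 and COL3A1 were above the negative controls on all 5 arrays without a call, and PDGFRB and LUM were within the negative controls on all arrays. Of 4 leukocyte markers (14.3 to 15.2 against 14.3 to 14.9), CD14 was lower (-1.12, adjusted p = 0.0298), CD68 and CSF1R did not pass, and PTPRC, which marks all leukocytes, was within the negative controls. Of 3 endothelial markers (11.8 to 12.0 against 10.2 to 10.9), only PECAM1 was called and was lower (-1.12, adjusted p = 0.0307 with limma). VWF was above the negative controls on all 5 arrays with a difference of -0.0031. CDH5 had overlapping arrays (-0.19, adjusted p = 0.880 with limma). None of 4 mast cell markers (7.72 to 8.23 against 7.45 to 8.61) or 3 platelet markers (7.66 to 8.47 against 8.72 to 9.58) was called. Among these, TPSAB1 (-0.073) and PF4 (0.0028) were above the negative controls on all 5 arrays. In the limma fit without a filter, KRT8 (adjusted p = 0.126), CDH1 (0.0616), CD14 (0.157) and PECAM1 (0.170) did not pass. The part of the marker differences in the values of PTGS2 and HPGD was not tested.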

How the data were processed

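Total RNA of both lines was profiled on Clariom D arrays, 3 per line. The authors made the deposited log2 values by RMA (background correction, quantile normalization, summarisation) with the Bioconductor packages affy and oligo. All 6 arrays are in the table, and the removal of low and invariant genes that their methods name had not been applied to it. The genome build is not given in the sources used here. The labels name the replicates of a line biological replicates. The line of each array was taken from a supplementary plot of the study, which marks arrays as sensitive or resistant. The array names do not give the replicate, and A03 is the array the study removed.

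The table has 138745 rows, and its 2995 control probe sets entered no comparison. A probe set entered the test if its mean on A01, A02, B02, B03 and B04 exceeded the median of all (1.88) and its SD exceeded the lowest 25% (0.18). These limits were chosen here, since the methods give none. The 51457 probe sets were fitted with limma 3.58.1 (R 4.3.3) at an FDR of 5% (Benjamini-Hochberg). Because of the SD filter, limma used 1 common SD of 0.34. In 1 simulated data set of this design, more than the nominal 5% of the calls were false. Genes removed by the filter were read from a fit without it. The number of arrays limits the precision.

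The members and lists were chosen with earlier results of these data known. Named were all 10 members, list genes past FDR 5%, the 4 largest other differences of each list, AKR1C3, HPGDS, PTGDS, PTGER3 and SLCO2A1, and markers of the cells. The markers that did not clear the negative controls on all 5 arrays (DCN, PDGFRB, LUM, PTPRC and CDH5) and AKR1B1 and PTGFRN were named after their values were seen. PLA2G4B and LTB4R2 were not matched to a symbol. Alternatives were A03 added, with and without array weights, omission of each array, other filters, variance model, normalization, a floor on low values, several probe sets per gene and an FDR of 10%.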

Additional observations from a re-analysis of the deposited data

How the results depend on the processing

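PTGS2 passed FDR 5% in 17 of 18 alternatives (differences 1.93 to 2.15) and HPGD in 13 of 18. Among the 18 were the 2 settings for several probe sets per gene. Both genes had 1 probe set, so these settings could not change their differences and were no separate check. With A03 added, PTGS2 was at 1.97 (adjusted p = 0.180) and HPGD at -0.62 (adjusted p = 0.777). HPGD, at -1.39, also did not pass without a filter (adjusted p = 0.0711) or with the low-expression filter alone (0.0612). With each array left out in turn HPGD lay between -1.51 and -1.29, and it did not pass without A01 (adjusted p = 0.0976) or without A02 (0.0972). The count of prostaglandin genes past FDR 5%, 2 as reported, was 0 with A03, 1 with the low-expression filter alone, 1 without a filter and 1 to 2 with each array left out.

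The eicosanoid count of 1 became 0 with A03, 2 with A03 and array weights, 4 with the trend option, 6 with the low-expression filter and trend option, and 1 to 2 with each array left out (2 without A01). The cyclic AMP count of 0 became 1 with A03 and array weights, with the trend option and with the low-expression filter and trend option. Over all probe sets, 620 passed as reported, and 26 with A03, 1744 with A03 and array weights, 182 with the low-expression filter alone, 1086 with that filter and the trend option, 355 with a limit at the negative controls, 177 without a filter, 1377 with the trend option and 271 to 595 with each array left out (271 without A02, 314 without A01).

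With each array left out, differences that had not passed ranged from 0.0673 to 0.889 for PTGS1, 0.24 to 0.81 for PTGER4, 0.13 to 0.33 for PLA2G4A and 0.20 to 0.44 for PTGR1. PTGER4 minus PTGER2 ranged from 0.32 (without B03) to 0.92 (without B02). Genes near 0 changed sign. PTGER2 was at 0.0315 with A03 and from -0.25 to 0.0752 with each array left out. PTGES was at -0.0087 with quantile normalization repeated and from -0.0244 to 0.0732 with each array left out, and PTGES2 from -0.0642 to 0.19. PTGES3 was at 1.38 with A03, 0.0101 with A03 and array weights, and from -0.17 to 0.0306 with each array left out. PTGES minus PTGES2 was 0.79 with A03 and from -0.21 to 0.14 with each array left out. With A03, PTGS2 minus HPGD was 2.59 and PTGS2 minus PTGES was 0.75. The cause of these shifts was not tested.

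Leaving out A01 or A02 leaves 1 MCF10.AT1 array, which is assumed to vary like the others. PLA2G4A and PTGER2 were at the floor on every array when low values were raised to the negative controls, so that alternative gave no value for them. No paired analysis was possible because the array names carry no replicate number.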
